A study of Mus musculus with 14 samples.

Results

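The male arm of a spinal cord RNA-seq series was compared here: 3 libraries from mice given dihydrotestosterone (DHT) against 4 from mice given its vehicle, 7 of the 14 libraries of the series, chosen by the sex and treatment in their labels and read over all 16703 genes of the table. The animals were castrated C57Bl/6 males, 9 to 10 weeks old before the induction of disease, with experimental autoimmune encephalomyelitis (EAE), an immune attack on the cord raised by immunization with a peptide of myelin oligodendrocyte glycoprotein in complete Freund's adjuvant. DHT at 0.04 mg per day in an oleogel, or the oleogel alone, was given through the nose for 8 days from the onset of neurological disability. Castration and EAE were therefore common to both groups, and no cord of a healthy or an intact male stands beside them. The methods name 4 animals per group, and 3 DHT libraries were analysed here. Libraries carry the numbers of the table's columns (vehicle 1 to 4 and DHT 2 to 4), and no label ties a number to an animal or a pair of animals, so p-values measure the spread between these libraries.

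DHT is a potent natural androgen, made from testosterone, and is not converted to estradiol. In EAE, T cells that recognize myelin recruit monocytes into the cord, and these cells and the resident microglia engulf the debris of damaged myelin, which is rich in cholesterol and sphingolipids. Lysosomal enzymes digest that load, apolipoproteins and ABC transporters export its cholesterol, and oligodendrocytes that rebuild myelin make or import cholesterol of their own. RNA of a whole cord sums all these cells, and a lower value can mean fewer cells of a type or less RNA in each, which cannot be told apart here.

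Each value is a log2 CPM, a log2 count scaled to the library's total, as the authors deposited it after a joint normalization of the male and female libraries. The values of the 7 male libraries resolved into whole numbers (100% within a tolerance of 0.05), with totals of 30774957 to 31862751 per library. Transcripts of the cord were abundant in all 7, with Mbp of myelin at 12.83 to 13.35 log2 CPM and Gfap of astrocytes at 11.79 to 12.44. 1 DHT library goes against its label. DHT 3 had a level of 7.41 log2 CPM for Xist, the RNA that silences an X chromosome in female cells, against −3.39, −1.14, −2.15 and 0.14 in the vehicle libraries and −2.18 and −0.14 in DHT 2 and 4. The Y-linked gene Ddx3y stood at −2.98 in DHT 3, against 6.95, 5.61, 5.57 and 3.69 in the 4 vehicle libraries and 5.90 and 4.53 in the other DHT libraries. In addition, over the 10958 genes with a normalised count of at least 200 in every library, the values of DHT 3 could be written as a weighted sum of the other 13 libraries with a residual standard deviation of 0.00071 on the log2 scale, where the weight on female vehicle 3 was 0.614 and the weights on the 7 female libraries summed to 1.361. From the other 6 male libraries alone, the residual standard deviation was 0.186 for DHT 3, 0.189 for DHT 2 and 0.18 for DHT 4. The 14 libraries are thus bound by a near-exact linear relation, in which DHT 3 held 59.7% of the squared weight, female vehicle 3 held 26.66% and no other library more than 4.15%. Whether a swapped library or the joint normalization of the sexes gives this was not tested. DHT 3 cannot be counted as independent of the female libraries, and results are given with it and without it. A gene is said to have risen or fallen when its Benjamini-Hochberg adjusted p was under 0.05 by limma in the fit of all 7 libraries and also in the fit of the 6 libraries without DHT 3, and the adjusted p of both fits is given for other genes.

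Treatment with DHT went with a broad change of the cord transcriptome, in which the falls were larger than the rises. The 12 largest falls held macrophage and microglia genes such as Gpnmb, Lyz2 and Ms4a7, and the 12 largest rises held 4 enzymes of cholesterol synthesis and the cytokine genes Lif and Cxcl1. In the fit of 7 libraries 2391 genes were higher with DHT (14.3% of all genes tested) and 2702 were lower (16.2%), and 7155 had an unadjusted p under 0.05. Without DHT 3 the counts were 1438 higher (8.61%) and 1953 lower (11.7%). Both fits together called 1310 genes higher and 1870 lower, that is 54.8% and 69.2% of those called with 7 libraries, and no gene was called in opposite directions. Among the calls of 7 libraries, 436 genes were lower by at least 1 on the log2 scale and 75 were higher by that much. The median log2 fold change of all genes was −0.0043, and −0.0069 without DHT 3, so the values below are close to changes relative to the typical gene.

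On the first principal component of the 7 libraries, which held 51.3% of the variance, the vehicle libraries scored −23.6, −20.84, −15.94 and −38.03 and DHT 2, 3 and 4 scored 19.48, 37.39 and 41.54. DHT 2 lay nearest to the vehicle libraries on this component and apart from the other 6 on the second (15.5% of the variance), where it scored −35.89 against −3.68 to 21.09 in the others. Vehicle libraries correlated with each other at 0.9878 to 0.993 across genes, and the 3 DHT libraries at 0.9838 to 0.9885, which describes the libraries and not the genes. Between the groups the correlations were 0.9676 to 0.9845. DHT 2 correlated with vehicle 3 (0.9845) and vehicle 2 (0.9841) slightly more than with DHT 3 (0.9838), but less than with DHT 4 (0.9853).

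Where groups did not overlap and the mean level was 2 log2 CPM or more, Gpnmb fell the most. This glycoprotein gene of lipid-loaded macrophages had log2 CPM levels of 8.87, 8.92, 9.46 and 9.90 in the vehicle libraries, numbered 1 to 4, and of 7.25, 5.80 and 3.63 in the libraries DHT 2, 3 and 4. All DHT values lay under all vehicle values, yet DHT 2 was nearer to the vehicle libraries than to DHT 4. Its log2 fold change was −3.72 (standard error 0.69, adjusted p = 0.00581), and −3.85 without DHT 3 (adjusted p = 0.0148). Atp6v0d2, a proton pump subunit of osteoclasts and macrophages, followed the same order, with 4.27, 4.72, 5.14 and 5.37 in the vehicle libraries and 2.97, 1.65 and −0.67 in the DHT libraries. Its difference was −3.56 (standard error 0.70, adjusted p = 0.00715; 0.0168 without DHT 3).

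Lyz2, the lysozyme of macrophages, was among both the largest falls and the most abundant genes that fell. Levels were 11.59, 11.64, 11.43 and 11.98 in the vehicle libraries and 9.60, 9.28 and 8.65 in the DHT libraries, and each DHT value lay more than 1 log2 unit under the lowest vehicle value. The log2 fold change was −2.48 (standard error 0.22, adjusted p = 0.0011; 0.00259 without DHT 3). Cd22, a sialic acid receptor of B cells that microglia also carry, stood at 4.78, 4.47, 4.43 and 5.53 with vehicle and 2.33, 2.31 and 0.40 with DHT, a difference of −3.12 (adjusted p = 0.00275; 0.00551 without DHT 3). Chil3, a lectin of alternatively activated macrophages, had 9.62, 9.65, 9.90 and 10.42 with vehicle and 9.17, 6.57 and 6.08 with DHT. Its DHT libraries spread widely, from near the vehicle range in DHT 2 to far under it in DHT 3 and 4, and the difference of −2.62 had an adjusted p of 0.0145, and of 0.0481 without DHT 3. The other falls of the same ranking were −3.03 for the transcription factor gene Tfcp2l1, −2.95 for Ccn5, a secreted matricellular protein, −2.58 for the macrophage membrane protein gene Ms4a7, −2.55 for Stra6l, −2.50 for coagulation factor VII (F7), −2.49 for the acid phosphatase gene Acp5 and −2.37 for Sprr1a, which injured neurons induce. Each of these 7 genes fell in both fits. Their adjusted p was 0.00177 to 0.00641 with 7 libraries and 0.00468 to 0.0175 without DHT 3. A lack of overlap between the groups was a condition of the ranking.

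**Figure D1:**
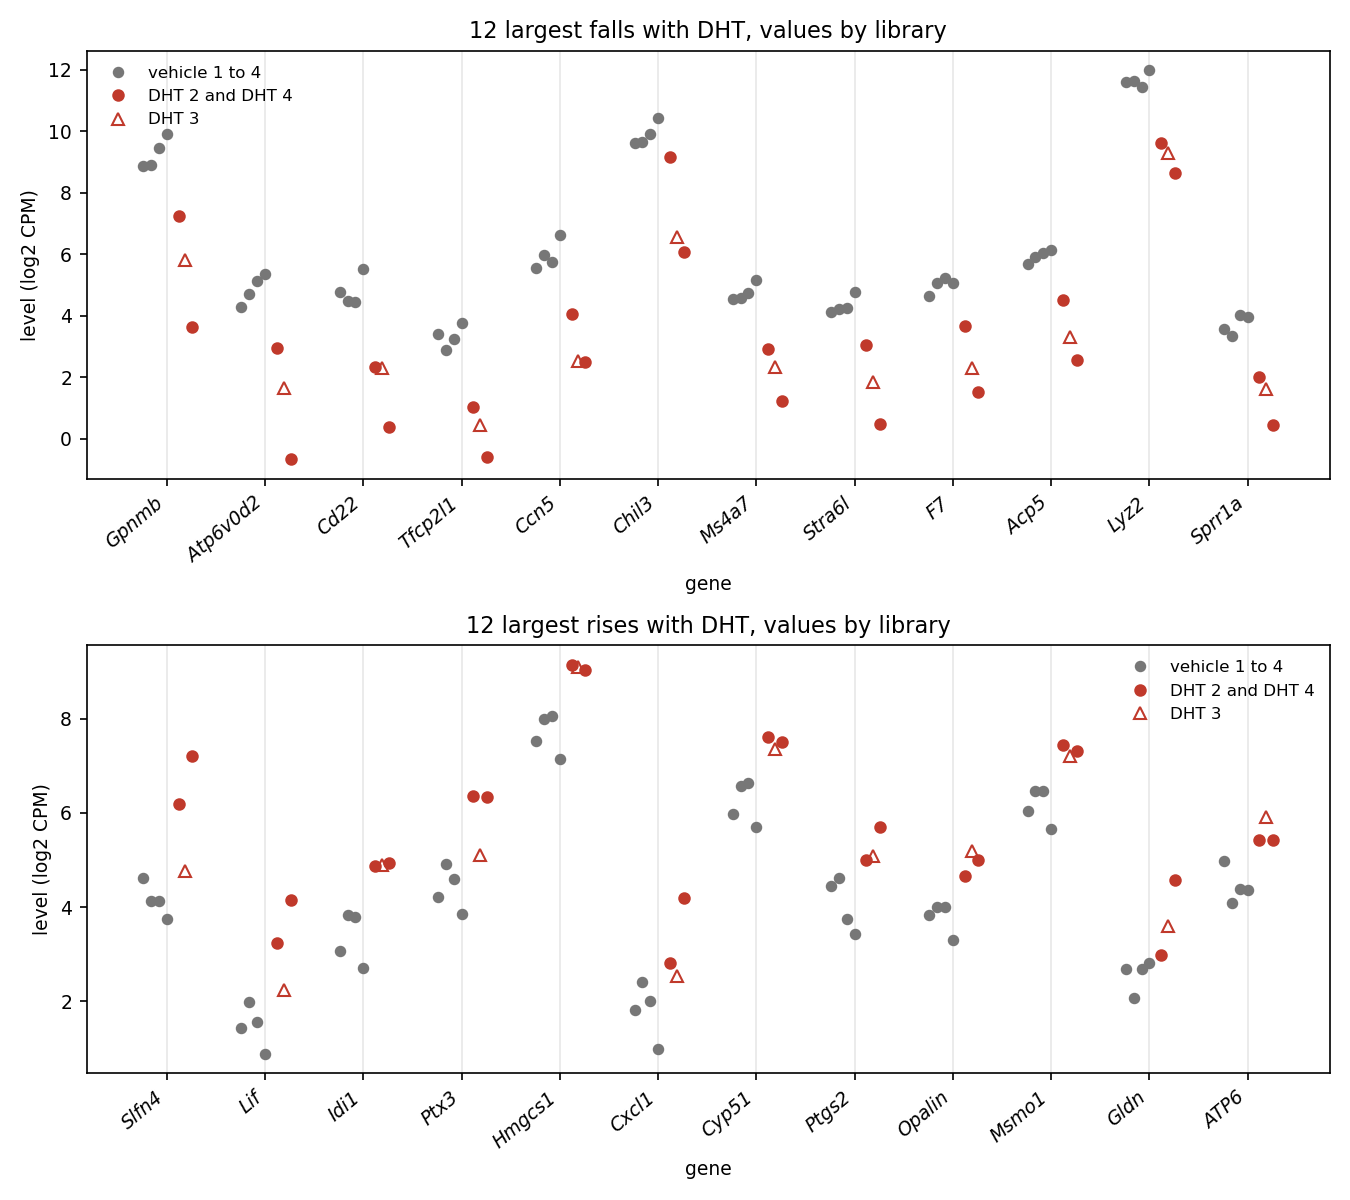
Level (log2 CPM, y axis) in each of the 7 male libraries of the 12 genes with the largest fall and the 12 with the largest rise (x axis), among genes called with all 7 libraries whose mean log2 CPM was 2 or more and whose groups did not overlap. Grey circles are vehicle 1 to 4, filled red circles DHT 2 and DHT 4, and the open red triangle is DHT 3; for Slfn4, Ptx3, Lif and Cxcl1 the triangle lies near the vehicle circles and the filled circles lie above.

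Abundant transcripts fell as well, so the change was not limited to genes of low level. Apoe, the main lipid carrier of the nervous system, made by astrocytes and by activated microglia and macrophages, was the most abundant gene that fell. Its levels were 12.70, 12.35, 12.13 and 13.02 in the vehicle libraries and 10.39, 10.85 and 10.08 in the DHT libraries. DHT 2 and 4 were the lowest, and DHT 3 lay between them and the vehicle libraries. The log2 fold change was −2.11 (standard error 0.24, adjusted p = 0.00167), and −2.32 without DHT 3 (adjusted p = 0.00323). Psap, the precursor of the saposins that help lysosomal enzymes to degrade sphingolipids, fell by 1.10 (adjusted p = 0.002; 0.00589 without DHT 3), and Ctsb, the protease cathepsin B, fell by 1.12 (adjusted p = 0.00172; 0.00514). Eef2, a translation elongation factor, fell by 0.38 (adjusted p = 0.00978; 0.0437). For 3 more of the 8 most abundant genes called lower, the call rested on DHT 3: Eef1a1 with −0.50 (adjusted p = 0.0142; 0.0536 without it), Sparc with −0.43 (0.0112; 0.052) and Apod, a lipocalin of oligodendrocytes whose groups overlapped, with −0.93 (0.0374; 0.108).

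Microglial genes of both the resting and the disease-associated state were lower in the DHT libraries. Of 30 homeostatic microglia genes, 24 were called lower and 0 higher (18 and 0 without DHT 3), with a median log2 fold change of −0.85, beside 16.2% lower and a median of −0.0043 over all genes. Of 36 disease-associated genes, 27 were lower and 1 higher (23 and 1 without DHT 3), with a median of −0.99. The mean level of the latter list was 7.88, 7.88, 7.85 and 8.13 log2 CPM over the vehicle libraries and 7.13, 6.68 and 6.42 over the DHT libraries, so that all DHT libraries were lower and DHT 2 was the least changed. The rise in that list was Hif1a, the oxygen-regulated transcription factor, with 0.51 (adjusted p = 0.00594; 0.0169 without DHT 3), named after its value was seen.

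Trem2, the lipid receptor through which microglia enter the disease-associated state, had levels of 6.89, 6.46, 6.71 and 7.29 with vehicle and 5.16, 4.62 and 4.05 with DHT. No DHT value reached the lowest vehicle value, and the log2 fold change was −2.23 (standard error 0.26, adjusted p = 0.00167; 0.0047 without DHT 3). Among the resting state genes with the smallest p, Cst3 (cystatin C) fell by 0.98, Ltc4s (leukotriene C4 synthase) by 1.99 and the fractalkine receptor gene Cx3cr1 by 1.14. The complement genes C1qa, C1qb and C1qc, whose products form the first component of the cascade, fell by 1.65, 1.52 and 1.65. P2ry12 and Tmem119, chosen as the markers that part microglia from blood-borne macrophages, differed from each other. P2ry12 stood at 5.11, 4.94, 5.33 and 5.23 with vehicle and 5.27, 4.93 and 4.34 with DHT, where only DHT 4 lay well under the vehicle libraries, and its difference of −0.31 did not pass (adjusted p = 0.261; 0.302 without DHT 3). Tmem119 fell by 0.86 (adjusted p = 0.00339; 0.00969). Tyrobp, the signalling partner of Trem2, fell by 1.40 and Axl, a receptor for dying cells, by 1.04.

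Complement beyond the microglial subunits was lower too. Of 27 complement genes 15 were called lower and 2 higher (9 and 1 without DHT 3), with a median of −0.68. C3, the central component, fell by 1.41 (adjusted p = 0.00167; 0.00487 without DHT 3) and C4b by 0.82 (0.00297; 0.00931). Masp1, a protease of the lectin pathway, rose by 0.60 (0.00394; 0.0137). Of 29 phagocyte receptor genes 12 were lower and 1 higher (11 and 2 without DHT 3). Cd300a and the scavenger receptor gene Stab1 fell by 1.58 and 1.70, and Mertk, a receptor for apoptotic cells, by 1.23. In the antioxidant list the peroxidases Prdx6 and Gpx3 fell by 0.92 and 1.57. The list also held the phagocyte oxidase subunits Cyba and Cybb, which are not antioxidant genes and fell by 1.59 and 1.51. In that list of 32, with Cyba and Cybb counted, 13 genes were lower and 2 higher (10 and 2 without DHT 3). Of all genes, 16.2% were lower and 14.3% higher (11.7% and 8.61% without DHT 3).

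Lysosomal genes were lower across the organelle, the enzymes inside it more than its membrane. Of 53 measured hydrolases and their helpers, 44 were called lower, 1 higher and 8 neither (41 lower and 1 higher without DHT 3), with a median log2 fold change of −0.68 (−0.73 without DHT 3). Of 44 genes of the lysosomal membrane, the proton pump and its regulators, 23 were lower and 2 higher (22 and 2 without DHT 3), with a median of −0.26. The hydrolase called higher was Ids, iduronate sulfatase, with 0.55 (adjusted p = 0.00513; 0.0115 without DHT 3), and the membrane genes called higher were the pump subunits Atp6v1g2 and Atp6v1d with 0.35 and 0.26, all 3 named after their values were seen.

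Ctsd, the aspartic protease cathepsin D, had levels of 10.72, 10.39, 10.61 and 10.90 in the vehicle libraries and 8.88, 8.86 and 8.10 in the DHT libraries. Its groups stood more than 1 log2 unit apart, with a log2 fold change of −2.04 (standard error 0.20, adjusted p = 0.00137; 0.00259 without DHT 3). Enzymes that cut sphingolipids and glycans fell with it: Naglu, which acts on heparan sulfate, by 1.69, the hexosaminidase subunit Hexa by 1.26 and the beta-galactosidase Glb1 by 0.81. The lysosomal phospholipase Pla2g15 fell by 1.32 and Pld3, which degrades nucleic acids in lysosomes, by 0.73. On the membrane side, the tetraspanin gene Cd63 fell by 0.78, the pump subunit Atp6v0c by 0.49 and the cystine exporter gene Ctns by 0.49. Cd68, chosen as the usual marker of phagocytic macrophages, had 7.82, 7.68, 7.84 and 8.20 with vehicle and 6.90, 6.12 and 5.36 with DHT, and fell by 1.76 (adjusted p = 0.00418; 0.0124 without DHT 3). Tfeb and Tfe3, chosen because they encode the factors that switch on lysosomal genes through the CLEAR element, fell by 0.41 and 0.40.

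Promoters of lysosomal genes are shown because these genes moved together. The core of the CLEAR element, TCACGTGA, read on both strands in the 250 bases before each RefSeq start, was present in 3 of 53 promoters of the hydrolases (5.66%, 44 genes matched by symbol) and in 3 of 45 promoters of the membrane list (6.67%, 35 genes matched), against 0.785% of all 32851 promoters. Promoters of cytosolic ribosomal protein genes, which were also lower with DHT, held it in 2 of 71 (2.82%, 60 genes matched), so few promoters underlie each share. Genes with more than 1 start give more than 1 promoter. The letters are a description of the window and not a site of binding. The sequences of 3 of these genes that have a single start follow, 5′ to 3′ on the strand of the gene and ending at the base before the start, with the core in capitals (RefSeq, build GRCm38.p6). They lie at chr7:142387828-142388077 (minus strand), chrX:134601006-134601255 (minus strand) and chr8:3500269-3500518 (plus strand).
Ctsd: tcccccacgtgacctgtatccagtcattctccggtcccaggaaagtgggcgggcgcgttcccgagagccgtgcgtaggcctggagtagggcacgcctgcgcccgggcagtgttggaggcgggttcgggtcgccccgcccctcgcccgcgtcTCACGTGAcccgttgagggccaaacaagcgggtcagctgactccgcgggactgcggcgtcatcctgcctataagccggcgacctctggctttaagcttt
Gla: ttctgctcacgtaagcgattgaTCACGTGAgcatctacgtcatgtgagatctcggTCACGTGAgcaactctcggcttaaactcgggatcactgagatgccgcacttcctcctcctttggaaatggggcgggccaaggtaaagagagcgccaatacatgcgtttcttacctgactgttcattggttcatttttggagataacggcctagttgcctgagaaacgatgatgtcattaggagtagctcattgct
Mcoln1: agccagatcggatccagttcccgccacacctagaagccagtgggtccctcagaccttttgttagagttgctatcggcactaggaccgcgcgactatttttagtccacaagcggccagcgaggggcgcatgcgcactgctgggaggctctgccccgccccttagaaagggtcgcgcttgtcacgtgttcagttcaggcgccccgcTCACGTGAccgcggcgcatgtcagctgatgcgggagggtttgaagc
Beside the fall of Ctsd, the alpha-galactosidase gene Gla, which carries the core at 2 places, had a log2 fold change of −0.47 (adjusted p = 0.0101; 0.0205 without DHT 3). Mcoln1, a calcium channel of the lysosome, had −0.29 (adjusted p = 0.0163; 0.0538), a call that rested on DHT 3. The other genes with the core, named like Gla and Mcoln1 for their promoters, were Ctsa with −1.11 and Cln3 with −0.87, which fell in both fits, and the pump subunit Atp6v1a with 0.22 (adjusted p = 0.118; 0.326).

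Cholesterol genes split by direction: those that make cholesterol were higher with DHT and those that export it were lower. Of 20 enzymes of cholesterol synthesis 16 rose and none fell, in both fits, with a median log2 fold change of 0.84 (0.89 without DHT 3). Of 27 genes of cholesterol efflux and lipid handling 20 were called lower and 0 higher (18 and 0 without DHT 3), with a median of −0.61. The mean level of the synthesis list was 5.08, 5.46, 5.45 and 4.87 log2 CPM over the vehicle libraries and 6.08, 5.91 and 6.06 over the DHT libraries. Here the 3 DHT libraries differed little from each other, and DHT 3 was no exception.

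Hmgcs1, which makes the precursor of mevalonate, had levels of 7.53, 7.99, 8.06 and 7.15 with vehicle and 9.14, 9.10 and 9.02 with DHT. Its log2 fold change was 1.41 (standard error 0.20, adjusted p = 0.00232; 0.00726 without DHT 3). The enzyme was higher in every DHT library than in any vehicle library. Idi1, an isomerase of isoprenoid units, had 3.07, 3.83, 3.79 and 2.71 with vehicle and 4.87, 4.90 and 4.94 with DHT, the largest rise of the pathway (1.56, adjusted p = 0.0037; 0.0111 without DHT 3). Steps after squalene rose as well, with 0.87 for the cyclase Lss, 1.27 for the demethylase Cyp51, 1.17 for the oxidase Msmo1 and 1.09 for the desaturase Sc5d. Fdft1, the first enzyme committed to sterols, rose by 0.97.

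**Figure D2:**
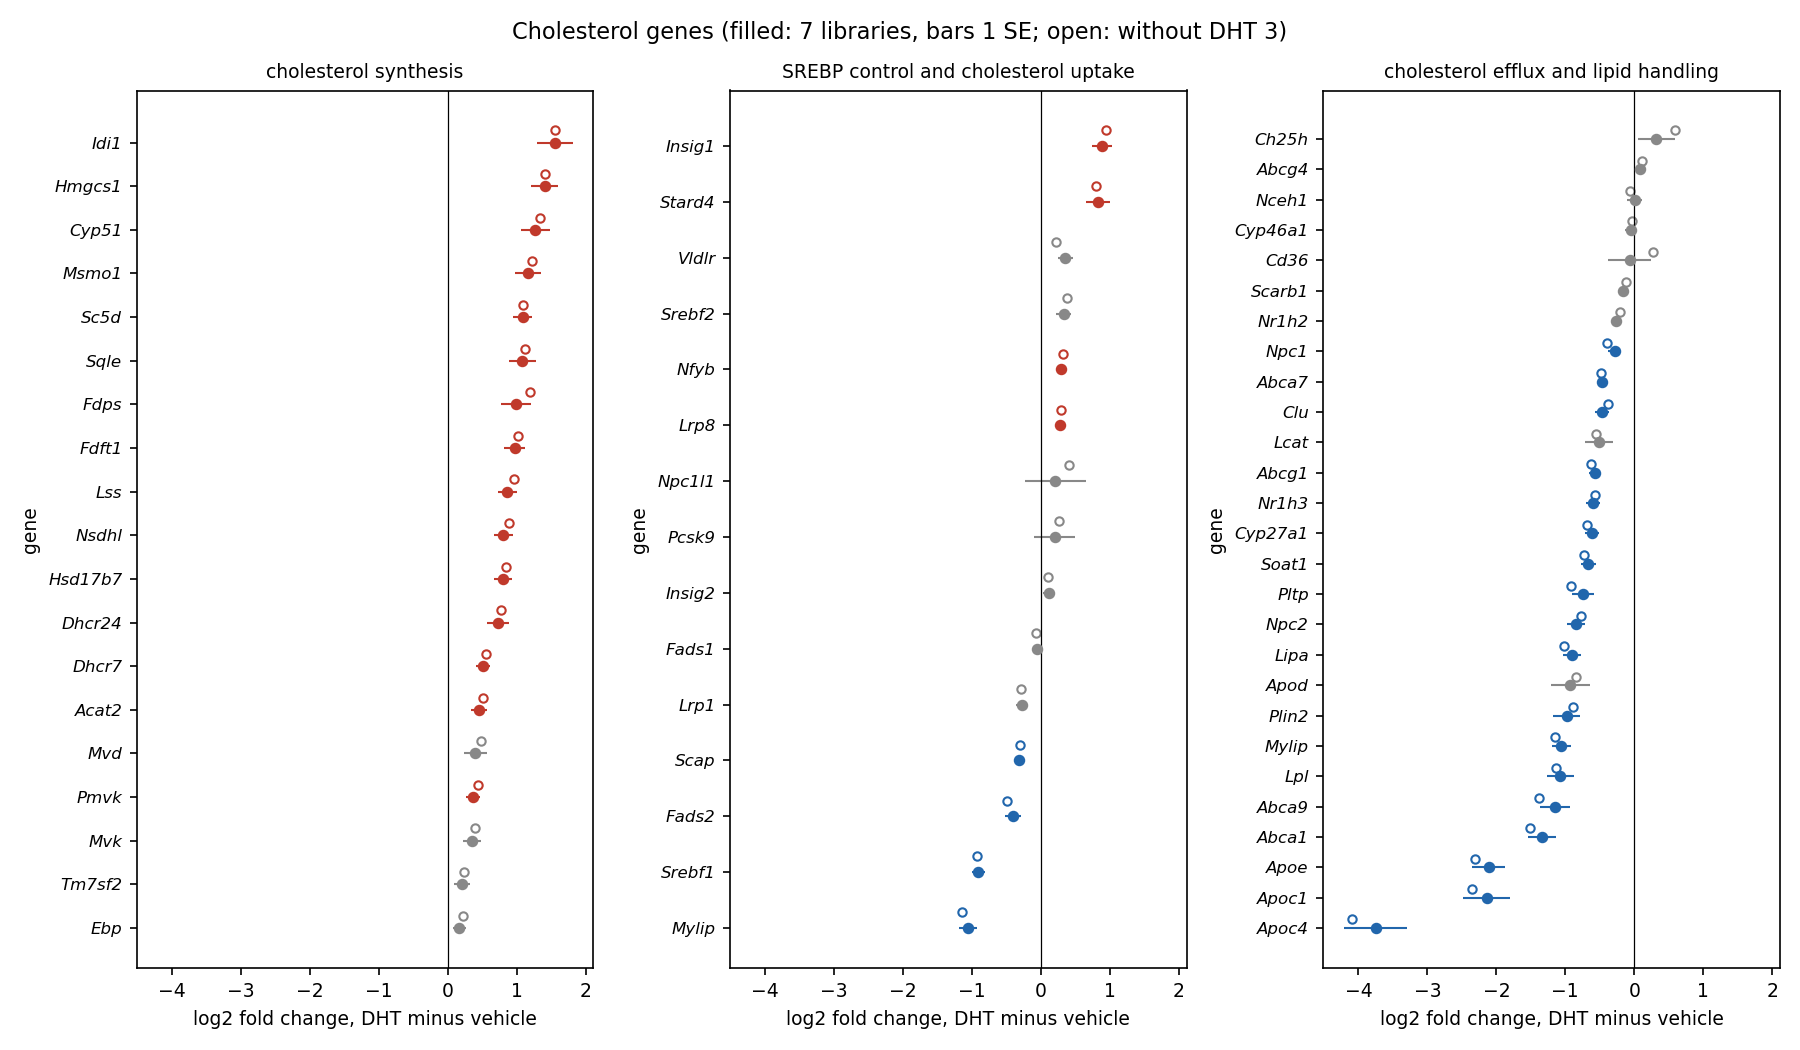
Log2 fold change (DHT minus vehicle, x axis) of the genes of cholesterol synthesis, of its control and uptake and of efflux and lipid handling (y axis), for the genes reported here. Filled circles are the fit of all 7 libraries with bars of 1 standard error, open circles the fit without DHT 3; red marks genes called higher and blue genes called lower in both fits, grey the others, and all 15 coloured genes of the synthesis panel lie to the right of 0 and all 18 of the efflux panel to the left.

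Genes that set cholesterol supply moved with the enzymes in part. Of 16 genes of SREBP control and uptake 7 were called higher and 4 lower (5 and 4 without DHT 3). Insig1, the sterol sensor that holds SREBP in the endoplasmic reticulum and is itself an SREBP target, rose by 0.89. Mylip, a ubiquitin ligase gene that oxysterol receptors induce, fell by 1.06. The genes of the SREBP factors differed in direction: Srebf2, the one that drives cholesterol genes, had 0.33 (adjusted p = 0.0468; 0.0687 without DHT 3), and Srebf1, which favours fatty acid genes and is induced by oxysterol receptors, fell by 0.91 (0.00144; 0.00366). Both were chosen for their role. Of the export genes, Abca1, the transporter that loads cholesterol on apolipoproteins, had 8.25, 8.25, 8.45 and 8.67 with vehicle and 7.27, 7.43 and 6.52 with DHT. Every DHT library was lower, by 1.33 on average (standard error 0.20, adjusted p = 0.00297; 0.00441). Apoc4, at low levels of 0.76, −0.36, 0.05 and 1.18 with vehicle and −3.40, −2.65 and −3.99 with DHT, fell by 3.75, a size that depends on the pseudocount (−1.62 with 0.5 CPM and −1.10 with 1 CPM added). Lipa, which frees cholesterol from its esters in lysosomes, fell by 0.90 and Npc2, which carries it out of them, by 0.84. The oxysterol receptor gene Nr1h3 (LXR alpha), chosen for its role, fell by 0.60.

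Promoters of 3 synthesis enzymes with large rises are shown for the same reason as those of the lysosome. The box CCAAT, read on both strands in 250 bases, was in 14 of 18 promoters of the synthesis genes (77.8%, 15 genes matched by symbol), against 33.8% of all promoters, 35.8% of those of the hydrolases and 33.3% of those of the lysosomal membrane list. The sterol regulatory element TCACNCCAC was in 1 of the 18, that of Hmgcs1 (5.56%), a share like that of the hydrolases (3 of 53, 5.66%), against 1.05% of all promoters and none of the lysosomal membrane list. The sequences, again 5′ to 3′ on the gene's strand and up to the base before the start, have both motifs in capitals and lie at chr13:119690101-119690350 (plus strand), chr13:8885356-8885605 (plus strand) and chr8:64733579-64733828 (minus strand).
Hmgcs1: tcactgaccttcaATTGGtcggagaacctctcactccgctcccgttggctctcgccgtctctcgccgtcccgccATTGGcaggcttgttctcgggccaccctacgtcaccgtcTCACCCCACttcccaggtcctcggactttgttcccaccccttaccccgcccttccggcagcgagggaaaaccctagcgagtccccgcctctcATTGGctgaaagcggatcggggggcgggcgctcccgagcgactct
Idi1: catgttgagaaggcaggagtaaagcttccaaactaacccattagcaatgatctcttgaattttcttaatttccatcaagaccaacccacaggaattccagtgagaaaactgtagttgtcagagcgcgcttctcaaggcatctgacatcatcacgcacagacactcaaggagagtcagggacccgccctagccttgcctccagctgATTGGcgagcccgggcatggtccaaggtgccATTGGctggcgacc
Msmo1: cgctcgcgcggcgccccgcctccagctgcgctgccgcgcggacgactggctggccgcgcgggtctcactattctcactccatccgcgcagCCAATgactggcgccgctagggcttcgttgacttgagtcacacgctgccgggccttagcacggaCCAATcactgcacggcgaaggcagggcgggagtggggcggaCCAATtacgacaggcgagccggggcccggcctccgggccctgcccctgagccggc
Hmgcs1 and Msmo1 hold the CCAAT box or its reverse at 3 places each and Idi1 at 2.

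Genes of fatty acid oxidation were called in 1 direction, lower, while those of fatty acid synthesis and of sphingolipids gave calls in both. Over all genes 16.2% were lower and 14.3% higher (11.7% and 8.61% without DHT 3). Of 28 enzymes of mitochondrial fatty acid oxidation 15 were lower (53.6%) and 0 higher (13 and 0 without DHT 3), with a median of −0.28. Echs1, a hydratase of the cycle, fell by 0.47, the dehydrogenase Acads by 0.93 and Cpt1a, the gate through which fatty acids enter mitochondria, by 0.36 (adjusted p = 0.00312; 0.0071 without DHT 3). Of 25 genes of fatty acid synthesis and desaturation 6 were higher and 5 lower (3 and 5 without DHT 3). Within it, the elongases Elovl4 and Elovl6 and the fatty acid synthase Fasn rose by 0.63, 0.89 and 0.44. The acyl-CoA synthetase Acsbg1, the carboxylase Acacb and the lipid carrier Fabp7 fell by 0.48, 0.79 and 0.79. Of 43 sphingolipid genes 16 were lower and 9 higher (14 and 7 without DHT 3). Sgpl1, which breaks down sphingosine phosphate, fell by 0.95, while Ugcg, which starts glucosylceramide synthesis, rose by 0.51.

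Most myelin genes did not pass the test, and more of those that did were higher than lower, among them genes of mature oligodendrocytes. Of 49 central myelin genes 13 were called higher, 4 lower and 32 neither (8 higher and 3 lower without DHT 3), beside 14.3% higher and 16.2% lower over all genes (8.61% and 11.7%), with a median of 0.15 (0.09). Opalin, a membrane protein found in mature oligodendrocytes, had levels of 3.84, 3.99, 4.0 and 3.31 with vehicle and 4.66, 5.20 and 5.0 with DHT. The groups did not overlap, a condition of the ranking of the 12 largest rises, in which Opalin stood. The log2 fold change was 1.17 (standard error 0.19, adjusted p = 0.00335; 0.011 without DHT 3). Ermn, a cytoskeletal protein of the same cells, had 7.39, 7.26, 7.43 and 7.01 with vehicle and 8.21, 8.41 and 8.07 with DHT, a rise of 0.96 (adjusted p = 0.00178; 0.00487). Tmem88b rose by 0.87, Fa2h, which hydroxylates the fatty acids of myelin galactolipids, by 0.75, and Il33, an alarmin stored in oligodendrocyte nuclei, by 0.81. Cd9, a tetraspanin of myelin and other cells, fell by 0.30. Of the structural genes, chosen for their role, Mbp stood at 13.27, 13.18, 13.01 and 13.04 with vehicle and 12.83, 13.11 and 13.35 with DHT. The libraries of the groups interleaved, with a difference of −0.03 (adjusted p = 0.928; 0.942 without DHT 3). Mog had 0.20 (adjusted p = 0.158; 0.329) and Mag 0.35 (0.0601; 0.104).

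Precursor and lineage genes gave calls in both directions, beside 16.2% lower and 14.3% higher over all genes. Of 25 precursor markers 4 were lower and 3 higher (5 and 1 without DHT 3), and of 20 lineage factors 1 was lower and 2 higher (2 and 2). Gpr17, the receptor of cells committed to differentiate but not yet myelinating, stood at 6.68, 6.61, 6.64 and 6.48 with vehicle and 4.28, 5.98 and 5.13 with DHT. DHT 3 was the closest of the DHT libraries to the vehicle range, and the gene fell by 1.47 (adjusted p = 0.00952; 0.00259 without DHT 3). Bmp4, which holds precursors back, fell by 0.72 and the sialidase Neu4 by 0.90. Of the factors, Myrf, which turns on myelin genes, rose by 0.31 and Sox2, a factor of progenitors, fell by 0.59.

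Neuronal genes were higher with DHT, by smaller steps than the falls of phagocyte genes. Of 41 genes of the presynaptic release machinery 28 were called higher and 1 lower (18 and 1 without DHT 3), with a median of 0.33. Of 47 glutamate receptor and postsynaptic genes 26 were higher and 1 lower (18 and 1), with a median of 0.28. Of 35 genes of inhibitory transmission 19 were higher and 0 lower (14 and 1), with a median of 0.41. These shares stand beside 14.3% of all genes called higher with 7 libraries and 8.61% without DHT 3.

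Snap25, a membrane fusion protein of synaptic vesicles, had levels of 10.23, 10.20, 10.38 and 10.08 with vehicle and 10.82, 10.90 and 10.79 with DHT. The DHT libraries were tight and all above the vehicle libraries, with a log2 fold change of 0.61 (standard error 0.09, adjusted p = 0.00307; 0.0129 without DHT 3). Syt1, the calcium sensor of release, rose by 0.66 and the adhesion gene Nrxn3 by 0.60. The presynaptic gene that fell was Sytl4, which takes part in exocytosis, with −0.52, named after its value was seen. On the receiving side, Gria4, an AMPA receptor subunit, rose by 0.62, the metabotropic receptor Grm5 by 0.89 and the NMDA receptor subunit Grin2a by 0.58. Homer3, a scaffold protein, fell by 0.54. Glrb, the beta subunit of the glycine receptor that carries fast inhibition in the cord, stood at 6.87, 6.95, 7.19 and 6.70 with vehicle and 7.54, 7.82 and 7.66 with DHT, and rose by 0.74 (adjusted p = 0.00307; 0.00992 without DHT 3). Gabbr2, a subunit of the GABA-B receptor, rose by 0.48.

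Channels and the axonal cytoskeleton followed, with more calls that rested on DHT 3. Of 29 voltage-gated sodium and calcium channel genes 17 were higher with 7 libraries and 9 without DHT 3, with none lower in either fit. Of 68 potassium channel genes 25 were higher and 3 lower (16 and 2), and of 33 axonal cytoskeleton genes 15 were higher and 0 lower (6 and none). Scn1a, a sodium channel of fast-spiking neurons, rose by 0.68 and the calcium channel subunit Cacna2d1 by 0.75. The heavy neurofilament gene Nefh rose by 0.47 (adjusted p = 0.00866; 0.0329 without DHT 3), and Kif5c, a motor of axonal transport, by 0.50. Of the most abundant neuronal genes called higher, Snap25 passed in both fits, as above, but Map1b and Nefm missed the threshold without DHT 3. Map1b had 0.47 (adjusted p = 0.0182; 0.0742) and Nefm 0.36 (0.0162; 0.0714). Of 26 cholinergic and motor neuron genes 11 were higher with 7 libraries and 4 without DHT 3. Slc5a7, the choline transporter chosen to mark cholinergic cells, had 4.52, 5.51, 5.44 and 4.17 with vehicle and 5.68, 5.93 and 5.76 with DHT, with no overlap but an adjusted p of 0.0568 (0.136 without DHT 3). Bdnf, a growth factor of neurons, rose by 0.82.

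**Figure D3:**
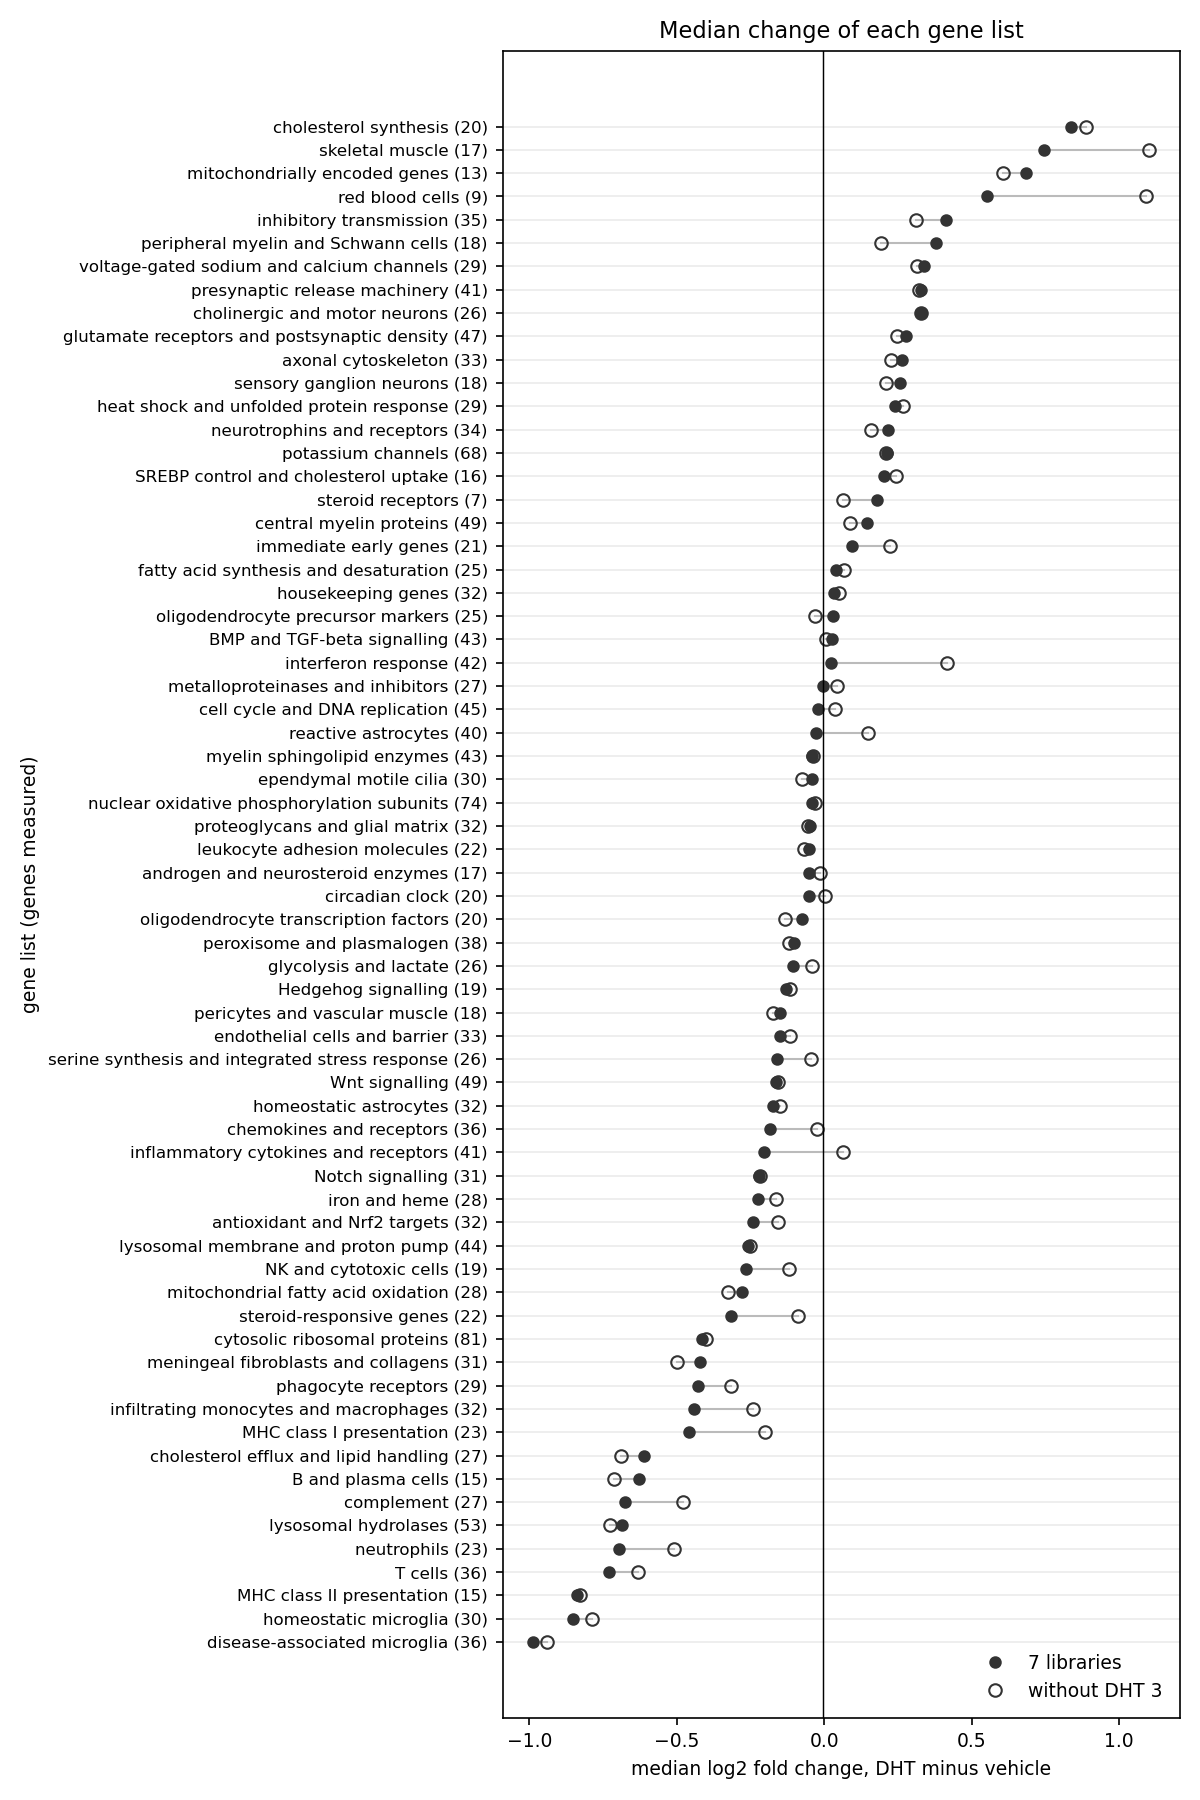
Median log2 fold change (DHT minus vehicle, x axis) of 66 gene lists (y axis; the list of Xist and Y-linked genes is left out), with the number of measured genes in parentheses. Filled circles are the fit of all 7 libraries and open circles the fit without DHT 3, and the vertical line is the median of all genes; with 7 libraries cholesterol synthesis lies furthest to the right and disease-associated microglia furthest to the left.

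Ribosomal and mitochondrial transcripts moved in opposite directions. Of 81 cytosolic ribosomal protein genes 70 were lower and 0 higher (57 and 0 without DHT 3), with a median of −0.42 (−0.40 without DHT 3). The mean level of the list was 7.55, 7.50, 7.42 and 7.66 log2 CPM in the vehicle libraries and 7.18, 7.03 and 7.05 in the DHT libraries, lower in all 3. Rps14 fell by 0.68, Rpl34 by 0.66 and Rps20 by 0.84. Ribosomal protein genes have many near-identical pseudogenes, so single values are uncertain where counting splits reads among copies.

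Of 13 genes encoded in mitochondrial DNA 9 were higher and 0 lower (6 and 0 without DHT 3), with a median of 0.68. ND2, a subunit of complex I, had levels of 11.85, 11.52, 11.61 and 11.46 with vehicle and 12.79, 12.65 and 12.54 with DHT, and its log2 fold change was 1.05 (standard error 0.14, adjusted p = 0.00205; 0.00787 without DHT 3). ND1 rose by 0.78 (adjusted p = 0.00578; 0.0227), while ND4 and ND5 had 0.49 and 0.60, with adjusted p of 0.0166 and 0.0234 that became 0.0573 and 0.0798 without DHT 3. ATP6 and ATP8, subunits of the ATP synthase whose genes overlap, rose by 1.13 and 2.97, and reads in the overlap cannot be assigned to either. Nuclear genes of the same complexes did not share this direction: of 74, 5 were higher (6.76%) and 18 lower (24.3%), with a median of −0.04. Without DHT 3, 3 were higher and 7 lower. The shares over all genes were 14.3% higher and 16.2% lower with 7 libraries, and 8.61% and 11.7% without DHT 3. Among chaperone genes, 10 of 29 were higher and 2 lower (10 and 1 without DHT 3). The mitochondrial chaperonin gene Hspd1 rose by 0.50 and the heat shock protein gene Hsp90aa1 by 0.48.

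Genes of infiltrating immune cells were lower in part, and the DHT libraries differed from each other. Of 36 T cell genes 16 were called lower and 0 higher (7 lower and 1 higher without DHT 3), with a median of −0.73 (−0.63). Mean levels of the list were 2.70, 2.85, 2.35 and 3.05 log2 CPM over the vehicle libraries and 2.51, 1.65 and 2.03 over the DHT libraries, so that DHT 2 lay within the vehicle range. Cd4, which helper T cells and some macrophages carry, had 4.37, 4.44, 4.33 and 4.88 with vehicle and 3.98, 2.88 and 2.88 with DHT, and fell by 1.26 (adjusted p = 0.00894; 0.0289 without DHT 3). Lag3, a checkpoint receptor of T cells that mouse microglia also express, fell by 2.14. Cd3e and Cd8a, chosen because they define T cells and their cytotoxic subset, had −0.89 (adjusted p = 0.0622; 0.185 without DHT 3) and −0.28 (0.803; 0.869). The level of Cd8a was 3.12, 0.42 and 0.68 in DHT 2 to 4 and 2.07, 2.56, 0.09 and 2.0 in the vehicle libraries, highest in DHT 2. Of 15 MHC class II genes 10 were lower and none higher (7 lower without DHT 3), with −1.66 for the invariant chain Cd74 and −1.59 for H2-Aa.

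Monocyte genes were called lower more often than higher. Of 32 genes 11 were lower (34.4%) and 1 higher (3.12%) with 7 libraries, and 9 lower and 4 higher without DHT 3. For comparison, 16.2% of all genes were lower and 14.3% higher with 7 libraries (11.7% and 8.61% without DHT 3). The falls held Lyz2, Gpnmb and Ms4a7 as above, the haptoglobin gene Hp (−1.64) and Saa3 (−1.90). Ly6c2 and Ccr2, chosen because they mark monocytes fresh from the blood, did not pass with 7 libraries. Ly6c2 had 6.43, 6.46, 6.38 and 6.99 with vehicle and 6.97, 4.52 and 5.17 with DHT, within the vehicle range in DHT 2 and under it in DHT 3 and 4 (adjusted p = 0.138; 0.418 without DHT 3). Ccr2 had 6.07, 6.14, 5.89 and 5.98 and 6.72, 6.09 and 6.34 (adjusted p = 0.07), and its difference was 0.51 without DHT 3 (adjusted p = 0.018). Of 23 neutrophil genes 8 were lower and 0 higher (5 and 1 without DHT 3). The granule protein genes Lcn2 and Elane fell by 1.66 and 2.02, whereas S100a8, an abundant transcript of neutrophils chosen for its role, had 7.11, 5.74, 5.71 and 6.82 and 5.74, 5.43 and 5.67, with overlap (adjusted p = 0.124; 0.258).

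Against these falls, several acute inflammatory genes were higher with DHT. Slfn4, a Schlafen gene induced in monocytes, had the largest rise of the ranking, with levels of 4.62, 4.12, 4.13 and 3.76 with vehicle and 6.20, 4.76 and 7.20 with DHT. DHT 3 lay just above the highest vehicle value and the other 2 far above it, and the log2 fold change was 1.90 (standard error 0.47, adjusted p = 0.0171) with DHT 3 and 2.54 without it (adjusted p = 0.0034). Lif, a cytokine of the interleukin 6 family, had 1.43, 1.99, 1.57 and 0.88 with vehicle and 3.24, 2.23 and 4.16 with DHT, a rise of 1.74 (2.23 without DHT 3, adjusted p = 0.0146 and 0.00579). Ptx3, a soluble pattern receptor, rose by 1.54 (1.95 without DHT 3), the neutrophil chemokine Cxcl1 by 1.38 (1.70) and the prostaglandin synthase Ptgs2 by 1.21 (1.29). Among 41 cytokine and receptor genes, 4 were higher (9.76%) and 13 lower (31.7%) with 7 libraries, and 9 and 10 without DHT 3. All genes gave 14.3% higher and 16.2% lower with 7 libraries, and 8.61% and 11.7% without DHT 3. Receptors made up the falls with the smallest p, with −0.91 for Il10rb, −1.26 for Il3ra, −1.11 for the TNF receptor Tnfrsf1b and −0.81 for the interferon gamma receptor Ifngr1. Il6, named after its value was seen, had 0.34, 0.89, 0.30 and −1.63 with vehicle and 2.13, 1.28 and 3.35 with DHT, low levels at which DHT 4 was the highest (adjusted p = 0.0258; 0.0214 without DHT 3). Without DHT 4 the calls of Cxcl1, Ptgs2 and Il6 were lost (adjusted p = 0.105, 0.0543 and 0.0892), while those of Slfn4, Lif and Ptx3 held.

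The interferon list turned on DHT 3. Of 42 interferon response genes 0 were higher and 2 lower with 7 libraries, with a median of 0.02, but 11 were higher and 1 lower without DHT 3, with a median of 0.42. The mean level of the list was 6.02, 6.44, 6.0 and 6.52 log2 CPM over the vehicle libraries and 6.85 and 6.40 in DHT 2 and 4, against 5.43 in DHT 3. Rsad2, an antiviral enzyme, had 4.44, 5.0, 4.19 and 4.84 with vehicle and 6.06, 4.45 and 6.04 with DHT, so that DHT 2 and 4 lay above every vehicle library and DHT 3 among them (adjusted p = 0.101; 0.0053 without DHT 3). Ifit1 was alike, with 5.53, 5.77, 5.45 and 5.78 and 7.01, 5.39 and 6.43, and DHT 3 just under the vehicle libraries (adjusted p = 0.145; 0.00579). Irf8, a factor that myeloid cells and microglia depend on, fell by 0.78 in spite of its place in the list (−0.50 without DHT 3, adjusted p = 0.0196 and 0.0233).

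**Figure D4:**
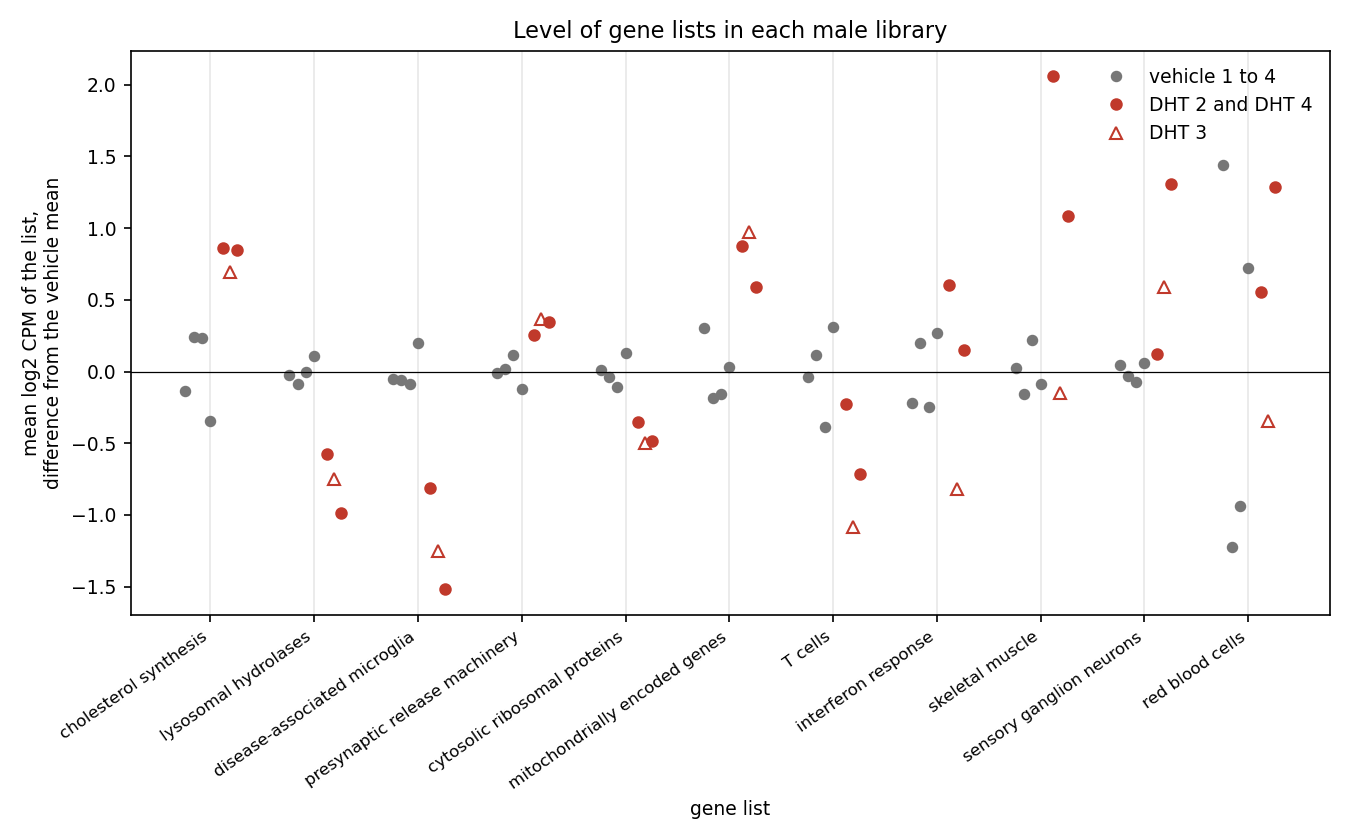
Mean log2 CPM of each list (x axis) in each male library, as the difference from the mean of the 4 vehicle libraries (y axis). Grey circles are vehicle 1 to 4, filled red circles DHT 2 and DHT 4 and the open triangle DHT 3. For the interferon list DHT 3 lies under the vehicle libraries, DHT 4 among them and DHT 2 above them. For skeletal muscle DHT 3 lies among the vehicle libraries, and DHT 2 and DHT 4 lie above them. For cholesterol synthesis and lysosomal hydrolases all 3 DHT libraries lie on the same side.

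Homeostatic astrocyte, endothelial and meningeal genes were also lower where they were called, with 1 astrocyte gene as the exception, but most were not called. These calls stand beside 16.2% lower and 14.3% higher over all genes (11.7% and 8.61% without DHT 3). Of 32 homeostatic astrocyte genes 11 were lower, 1 higher and 20 neither (9 lower and 1 higher without DHT 3). Those not called included Slc1a2 with −0.03 (adjusted p = 0.825; 0.85 without DHT 3) and Aqp4 with −0.09 (0.58; 0.422), both named after their values were seen. Agt, angiotensinogen, had 8.29, 7.62, 7.87 and 8.32 with vehicle and 6.86, 7.09 and 6.94 with DHT, and fell by 1.06 (adjusted p = 0.003; 0.00726). Mlc1, a membrane protein of astrocyte endfeet, fell by 0.53 and the growth factor receptor gene Fgfr3 by 0.48. Gfap, chosen as the intermediate filament of reactive astrocytes, had 12.32, 12.35, 12.19 and 12.44 and 12.02, 11.79 and 12.15, lower in each DHT library, with a difference of −0.34 that did not pass (adjusted p = 0.0901; 0.351). Of 33 endothelial genes 7 were lower (21.2%, near the share of all genes) and none higher (8 lower without DHT 3). The tight junction gene Cldn5 had −0.96. Vcam1, the adhesion molecule that leukocytes use to enter the cord, fell by 0.78 (adjusted p = 0.00376; 0.00793). Of 31 meningeal and collagen genes 12 were lower and none higher (11 lower without DHT 3), with −1.01 for Col1a1, the chain of type I collagen.

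Of the signalling lists, Notch genes were called lower alone, and the others held calls in both directions, beside 16.2% lower and 14.3% higher over all genes. None of 31 Notch genes was higher and 11 were lower (8 without DHT 3), with −0.56 for the receptor Notch2 and −0.89 for its modifier Mfng. Of 49 Wnt genes 11 were lower and 5 higher (12 and 1 without DHT 3), with −1.85 for the receptor Fzd10, −1.32 for the secreted inhibitor Notum and −0.65 for the co-receptor Lrp5. Of 43 BMP and TGF-beta genes 8 were lower and 5 higher (9 and 4). The receptor Tgfbr2 and the ligands Bmp6 and Tgfb1 fell by 0.69, 0.93 and 0.82, and the receptor Bmpr2 and the activin subunit Inhba rose by 0.61 and 0.96. Of 19 Hedgehog genes 4 were lower and 3 higher (3 and 1). The ligand gene Shh rose by 1.02 (adjusted p = 0.0161; 0.0301), and Smo, the receptor subunit that passes its signal on, fell by 0.45 (0.00353; 0.011).

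Steroid genes gave small differences. Pgr, the progesterone receptor gene, rose by 0.66 and Nr3c2, the mineralocorticoid receptor gene, by 0.42. Esr1, the estrogen receptor alpha gene, had 0.18 (adjusted p = 0.319; 0.762). Among enzymes of androgen and neurosteroid metabolism, Hsd17b7, which also serves cholesterol synthesis, rose by 0.81, and Tspo, a mitochondrial protein that marks activated microglia, fell by 0.88 (−0.57 without DHT 3). Of 22 genes known to respond to steroids 3 were lower and none higher, with a median of −0.32. That is 13.6% lower, under the 16.2% over all genes (14.3% higher). Without DHT 3, 1 was lower and 3 higher, with a median of −0.09, beside 11.7% lower and 8.61% higher over all genes. Fkbp5, chosen as a chaperone gene that androgens and glucocorticoids induce in many tissues, had 7.29, 6.46, 6.70 and 7.03 with vehicle and 6.89, 5.53 and 6.38 with DHT, lowest in DHT 3 (adjusted p = 0.154; 0.477 without it).

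Transcripts of tissues around the cord differed between single libraries. The mean of 17 skeletal muscle genes was 0.28, 0.10, 0.47 and 0.17 log2 CPM in the vehicle libraries and 2.31, 0.11 and 1.34 in DHT 2 to 4, with 2 genes called higher with 7 libraries and 10 without DHT 3. Myh4, a myosin of fast muscle fibres, had −3.39, −3.99, −0.87 and −3.99 and 3.53, −2.17 and 1.27, where a value of −3.99 stands for a count of 0. The mean of 18 sensory ganglion genes was 2.04, 1.95, 1.92 and 2.05 in the vehicle libraries and 2.11, 2.58 and 3.29 in DHT 2 to 4, highest in DHT 4, and that of 18 genes of peripheral myelin was 4.53, 3.84, 4.21 and 4.71 and 3.99, 4.82 and 5.02. Gldn, a Schwann cell protein that gathers sodium channels at nodes and one of the 12 largest rises, had 2.69, 2.08, 2.68 and 2.81 with vehicle and 2.98, 3.60 and 4.57 with DHT (adjusted p = 0.0311; 0.0605 without DHT 3). Scn10a, a sodium channel of pain-sensing ganglion neurons, had −3.39, −3.99, −3.99 and −2.97 and −2.41, −0.80 and 2.55. The mean of 9 red blood cell genes ranged from 1.16 to 3.82 in the vehicle libraries and was 2.94, 2.04 and 3.67 in DHT 2 to 4. Muscle transcripts were thus highest in DHT 2 and DHT 4, and ganglion and peripheral myelin transcripts in DHT 3 and DHT 4, and their part in the differences between the groups was not tested.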

How the data were processed

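Spinal cords of castrated male mice with EAE were profiled by bulk RNA-seq. Per the labels and the study's methods, the authors trimmed reads with fastp, checked them with FastQC and Picard, aligned and counted them with DRAGEN on mm10 with GENCODE genes, normalized male and female libraries together with RUVSeq on housekeeping genes, and deposited log2 CPM by edgeR. The 30 columns of the authors' own comparisons (fold changes and p-values) were not used, and columns were matched to groups by sex and treatment.

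Groups were compared with limma 3.58.1 (R 4.3.3; lmFit, and eBayes with a mean-variance trend) on the deposited log2 CPM, with no filter and Benjamini-Hochberg adjustment over 16703 genes, with all 7 male libraries and without DHT 3. Every adjusted p comes from limma. The code was tested on simulated data. Genes named were the 12 largest changes in each direction (mean log2 CPM of at least 2, no overlap), the 8 most abundant called in each direction, up to 6 members of each list with the smallest p, and others as stated. Some genes are not reported here. The 67 lists and the libraries were chosen with earlier results of these data known. Alternatives covered scaling, filter, pseudocount, variance model, samples, block and threshold. Promoters are from RefSeq GRCm38.p6.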

Additional observations from a re-analysis of the deposited data

Results flagged for a closer look

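In the vehicle group of 4 libraries, 1 library stood apart from the other 3 for 14 of the 277 named genes and list means tested (5.1%), by a gap above Dixon's critical ratio, which chance alone passes in about 1 of 20 groups. All values are log2 CPM. In vehicle 4, Tyrobp stood at 7.63 (others 7.24 to 7.28), Ly6c2 at 6.99 (6.39 to 6.46), Cxcr4 at 6.08 (5.64 to 5.69) and Hspd1 at 6.94 (7.08 to 7.11), the mean of the disease-associated microglia list at 8.13 (7.85 to 7.88) and that of the antioxidant list at 6.83 (6.73 to 6.74). In vehicle 1, ND1 stood at 12.46 (12.19 to 12.23) and Cpt1a at 6.66 (6.73 to 6.74). In vehicle 2, Smo stood at 5.28 (5.46 to 5.49) and the mean of the cell cycle list at 4.05 (3.53 to 3.57). In vehicle 3, Homer3 stood at 4.51 (4.66 to 4.68), and the list means were 5.69 for myelin sphingolipid enzymes (5.63 in the others), 5.53 for complement (5.45 to 5.46) and 4.54 for Notch signalling (4.60 to 4.62). The 3 DHT libraries were too few for this test.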

How the results depend on the processing

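With 7 libraries the threshold of 0.05 gave 5093 calls, and the counts of both directions stayed within 1.5 times under quantile normalization, centring on housekeeping genes, a mean log2 CPM of at least 1, a pseudocount of 0.5 or 1, other variance models, array weights and voom (4255 to 5219 calls). The higher share of calls was 46.9% as deposited, 54.0% after quantile normalization and 54.1% after centring on housekeeping genes, and these scalings moved the median of all genes to 0.0358 and 0.0355. Leaving out 1 library gave 1396 to 2572 genes higher, 1878 to 2692 lower and 3288 to 5264 in all. Besides DHT 3 (1438 higher, 3391 in all), vehicle 1 (1467 and 3345) and vehicle 4 (1396 and 3288) moved counts by over 1.5 times. With the 4 groups of the series in 1 model, 1783 genes were lower and 2023 higher. An adjusted p under 0.01 left 836 higher, 1267 lower and 2103 in all. The replicate block by column number gave 1442 higher, 1697 lower and 3139 in all. No label says that same-numbered libraries were paired. Their deviations from the group means correlated at 0.043, 0.116 and −0.06 for numbers 2, 3 and 4. DHT 3 correlated best with vehicle 3, but DHT 2 did so with vehicle 4 (0.123) and DHT 4 with vehicle 1 (0.096). So few libraries cannot decide whether the numbers mark pairs. The cause of these moves was not tested.

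No called change of a named gene reversed under these settings. Of the 192 named genes called with 7 libraries, the model of 4 groups lost 56, among them Lyz2, Cd68, Chil3, Lif, Ptx3 and Slfn4, the replicate block lost 22, and leaving out 1 library lost 3 to 15. Genes called with and without DHT 3 that lost the call without another library were Adamts1, Adamts9, Cxcl1, Cxcl2, Fasn, Il6, Irf8, Myh4, Myrf, Ptgs2, Sytl4, Tspo and Vim. Changes of called genes moved by over 1.5 times with 1 CPM added (Il6 to 1.5, Notum to −0.79, Nrtn to −0.74), after quantile normalization (Eef1a1 to −0.12, Eef2 to −0.23, Sparc to −0.27, ND5 to 0.26, Map1b to 0.77) and without DHT 4 (Cxcl1 and Cxcl2 to 0.88, Gldn to 0.72). List medians near 0 changed sign. The circadian clock median (−0.0535) was 0.0056 after quantile normalization and −0.0663 to 0.0037 when 1 library was left out, that of myelin sphingolipid enzymes (−0.0404) was 0.003 and −0.0781 to 0.0037, and that of pericytes (−0.1502) was −0.1791 to 0.0078 when 1 library was left out. The interferon median (0.0234) was negative in 6 of 18 settings (−0.2383 to 0.4161). Precision is limited by 3 DHT libraries, of which DHT 3 cannot be counted as independent of the female libraries.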

Other observations

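Chemokine and iron genes were called lower more often than higher with 7 libraries, though most did not pass. Over all genes 16.2% were lower and 14.3% higher (11.7% and 8.61% without DHT 3). Of 36 chemokine and receptor genes 12 were lower and 3 higher (10 and 6 without DHT 3), with a median log2 fold change of −0.18 (−0.02). Ccl5, a chemokine of activated T cells and glia, fell by 2.21, Cxcl13, which attracts B cells, by 1.85, Cxcl16, a ligand that macrophages make, by 1.10, and the receptor gene Cxcr4 by 1.30, whereas the neutrophil chemokine gene Cxcl2, a relative of Cxcl1, rose by 1.46. Of 28 iron and heme genes 9 were lower and 2 higher (8 and 2). The ferritin light chain gene Ftl1 had levels of 9.93, 9.84, 9.95 and 10.18 log2 CPM with vehicle and 8.93, 8.40 and 8.23 with DHT, lower in every DHT library, and fell by 1.46 (limma, adjusted p = 0.00146; 0.00438 without DHT 3). Ferritin genes have many pseudogenes, so the value is uncertain where counting splits reads among copies. The transferrin receptor gene Tfrc, which imports iron, rose by 0.41.

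Among B and plasma cell genes 5 of 15 were lower and 1 higher (4 and 1 without DHT 3), with a fall of 1.69 for the adaptor gene Blnk beside that of Cd22. NK and cytotoxic genes gave 1 lower of 19, which was Ccl5, and none higher. Of 23 MHC class I genes 4 were lower and 2 higher (2 and 1), with a fall of 1.30 for H2-D1. Of 40 reactive astrocyte genes 6 were lower and 4 higher (5 and 7), and the intermediate filament gene Vim fell by 0.71. Of 27 metalloproteinase and inhibitor genes 5 were lower and 3 higher (5 and 3), with falls of 1.13 for the gelatinase gene Mmp2 and 1.10 for its activator Mmp14 and rises of 0.78 for Adamts9 and 0.70 for Adamts1. Leukocyte adhesion genes held 8 lower and 1 higher of 22 (3 and 1). Over all genes 16.2% were lower and 14.3% higher (11.7% and 8.61% without DHT 3). The shares lower with 7 libraries were near this for MHC class I (17.4%), reactive astrocyte (15%) and metalloproteinase genes (18.5%).

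Of 34 neurotrophic factors and receptors 10 were higher and 3 lower (6 and 2 without DHT 3). Fgf9, a growth factor of neurons, rose by 0.60 and the neuregulin receptor gene Erbb4 by 0.55, while the neurturin gene Nrtn fell by 1.21. Serine synthesis and integrated stress genes gave 8 lower and 5 higher of 26 (4 and 3), with a fall of 0.53 for Phgdh, the first enzyme of serine synthesis. Peroxisomal genes gave 5 lower and 3 higher of 38 (4 and 3). The plasmalogen genes Far1 and Agps rose by 0.71 and 0.41, and the oxidase gene Acox3 fell by 0.62. Enzymes of androgen and neurosteroid metabolism gave 5 lower and 2 higher of 17 (3 and 1). Over all genes 16.2% were lower and 14.3% higher (11.7% and 8.61% without DHT 3), and peroxisomal genes were under both with 7 libraries (13.2% and 7.89%).

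The remaining lists gave these calls, beside 16.2% lower and 14.3% higher over all genes, and 11.7% and 8.61% without DHT 3 (counts without it in parentheses). Glycolysis genes gave 4 lower and 2 higher of 26 (3 and 1), the circadian clock 2 lower and 3 higher of 20 (2 and 3) and immediate early genes 1 lower and 3 higher of 21 (0 and 5). Proteoglycan and glial matrix genes gave 5 lower and 1 higher of 32 (5 and 2) and pericytes 4 lower and 2 higher of 18 (1 and 1). Ependymal cilia genes gave 1 lower and 0 higher of 30 (1 and 0) and cell cycle genes 1 lower and 3 higher of 45 (0 and 1). Of 32 housekeeping genes 6 were higher and 4 lower (3 and 2 without DHT 3), with falls of 1.03 for the lysosomal glucuronidase gene Gusb and 0.69 for the ribosomal protein gene Rplp0. Adamts1, Cxcl16, Cxcl2, Erbb4 and Vim were named after their values were seen.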
